A study of Mus musculus with 8 samples.

Results

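The Zfyve and Wdfy genes named for a FYVE domain were followed as a family of 10 members, Zfyve1, Zfyve9, Zfyve16, Zfyve19, Zfyve21, Zfyve26, Zfyve27, Wdfy1, Wdfy2 and Wdfy3, through maps of m6A, the N6-methylated form of adenosine and a common mark of mRNA. A peak belonged to the family when the gene name deposited with it was 1 of these 10, whatever its size or group. This rule took 54 peaks of 38705 over 4 lists, from 8 of the 10 members, while 9779 genes had a peak in the whole series. Zfyve1 and Zfyve26 are the members that the study itself followed up. It chose them by gains of m6A in these same samples, together with gains in binding of the m6A reader YTHDF3 and an autophagy annotation. Their values here are therefore no independent evidence of a direction. In the study's later qPCR check, YTHDF3 binding rose on starvation for Zfyve1 but not for Zfyve26.

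The cells were mouse embryonic fibroblasts (MEFs) of wild-type C57BL/6 animals, taken at embryonic day 13.5 and used after 5 to 6 passages, and no group carried a transgene or a deletion. Control MEFs stayed untreated in full medium and starved MEFs spent 2 h in nutrient-deprived medium. MeRIP-seq captures m6A-bearing RNA fragments with an antibody (the immunoprecipitated, or IP, library) and sequences a portion of the same RNA, set aside before the capture, as input. Both kinds of library were made for 2 replicates of each group, 8 samples in all, and the values below come from the peak lists of the 4 IP libraries.

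The FYVE domain is a small zinc finger that binds phosphatidylinositol 3-phosphate (PI3P), the lipid that marks early endosomes and the sites where autophagosomes form. Proteins with this domain are carried to such membranes and recruit other factors there. Class III PI3-kinase makes PI3P when autophagy is induced, and myotubularin phosphatases remove it. Within the family, Zfyve1 encodes DFCP1, a marker of the PI3P-rich subdomains of the endoplasmic reticulum, and Zfyve26 encodes spastizin, which acts with spatacsin in lysosome reformation and is mutated in a hereditary spastic paraplegia. Wdfy3 encodes ALFY, a scaffold for the selective autophagy of protein aggregates.

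The value of a peak is its fold enrichment, the ratio of IP to input signal that the authors' peak caller gave within a library. The lists held 10103 and 9871 peaks in the control IP libraries 1 and 2, and 9757 and 8974 in the starved IP libraries 1 and 2. The lists hold no reads, so depth is unknown and a missing peak is not a missing methyl mark. The lists give no expression level, and the cell type was not checked against its markers. The cells were profiled in bulk, so that a change in the share of cells and a change per cell cannot be told apart. Nothing in the labels says that replicates came from separate embryos, and the spread between them may be technical.

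Fragments around motifs in the peaks of Zfyve1 and Zfyve26 are shown first, since these are the genes to be set against the rest. The sequences are from RefSeq (GRCm38), 30 bases each, written along the transcribed strand, and all coordinates are on that assembly (mm10) and count from 1. Capitals mark GGAC, the core in which m6A is most often placed, with the T that follows it where there is one. The lines give, in order, the exon of Zfyve1 with the start codon, its exon 4 and its 3′UTR, and then the stop codon region, exon 11, exon 34 and exon 21 of Zfyve26.
Zfyve1, chr12:83594787-83594816, minus strand: atgcatgcagtgGGACTgatgaagctatct
Zfyve1, chr12:83575087-83575116, minus strand: tatcaggaaattGGACTgtaagcctgacca
Zfyve1, chr12:83547123-83547152, minus strand: ccctctgcccctGGACTccaggctgcccct
Zfyve26, chr12:79233853-79233882, minus strand: tcctgtggagtgGGACTttatgcgcctgac
Zfyve26, chr12:79280427-79280456, minus strand: gcggccagagatGGACTgcagagccgcctg
Zfyve26, chr12:79246106-79246135, minus strand: tgaagcctcctttGGACctgaaccaattga
Zfyve26, chr12:79268485-79268514, minus strand: cttcactggccctGGACatactaactgagg

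The family had 13 and 16 peaks in control MEFs and 14 and 11 in starved MEFs, which was 0.129%, 0.162%, 0.143% and 0.123% of each list. The means were 14.5 ± 2.12 and 12.5 ± 2.12 (SD, n = 2), so the groups overlapped and differed by no more than the spread between replicates. All lists together fell by 621.5 peaks on average from control to starved, from 9987 ± 164 to 9365.5 ± 554. The number of members with a peak was 7, 7, 6 and 7 in the same order. A peak was thus listed for most of the family in every library.

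The median fold enrichment of the family's peaks was 12.4 and 15.7 in control and 19.0 and 18.8 in starved MEFs. The medians over all peaks of the same lists were 12.2 and 12.3, then 14.6 and 14.7. On the log2 scale the family's mean was 0.43 higher in starved MEFs, from 3.80 ± 0.24 to 4.23 ± 0.00014 (SD, n = 2), and that of all peaks was 0.26 higher, from 3.61 to 3.87. The family's groups did not overlap, but the difference went to -0.02 when only peaks of at least 4-fold enrichment were kept, to -0.05 with lists of equal length and to -0.56 with peaks under a false discovery rate of 20%. Most family peaks lay at or above the median of their list, 7 of 13 and 12 of 16 in control and 10 of 14 and 6 of 11 in starved MEFs. The caller's false discovery rate was under 20% for 5 and 10 of the family's peaks in control and for 11 and 5 in starved MEFs, while 45.5% to 63.1% of all peaks of a list met it.

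**Figure D1:**
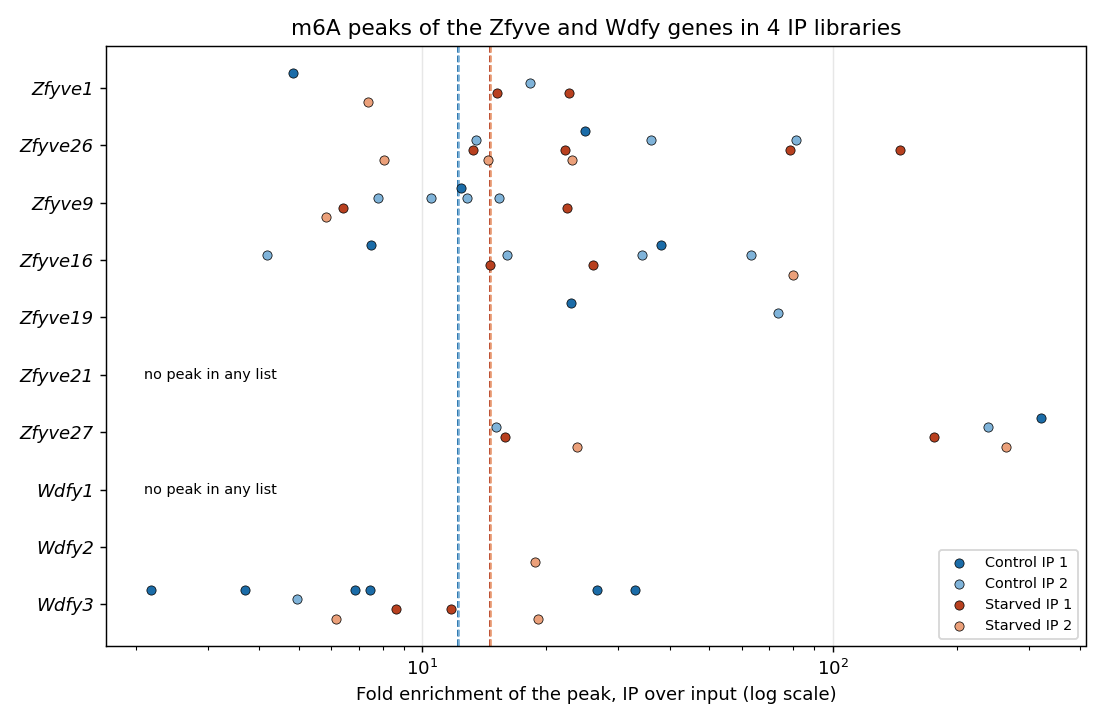
Fold enrichment of each of the 54 family peaks (x axis, log scale), with 1 row per gene and 1 colour per IP library. Dashed lines mark the median over all peaks of each list. The 4 points of Zfyve27 between 176 and 321 lie above every other peak of the family, and Zfyve21 and Wdfy1 have no point.

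Zfyve1 (chr12:83546558-83597222, minus strand, 13 exons) had 5 peaks in 3 places. Exon 3, which is 925 nt long and holds the start codon (first base 83594880), had a peak of 4.85-fold in control 1, none in control 2, 22.7-fold in starved 1 and 7.35-fold in starved 2. This region, chr12:83594398-83595322, was listed in both starved libraries and in 1 of the control libraries, where it was lowest. In starved 1 the peak covered the exon from edge to edge, and in all 3 libraries it ended at the upstream edge of that exon. It therefore spanned the end of the 5′UTR and the first part of the coding sequence.

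The other Zfyve1 peaks were each listed once. A peak in the coding sequence of exon 4 (chr12:83574912-83575111) reached 18.3-fold in control 2, the library without the exon 3 peak. A peak in the 3′UTR (chr12:83547022-83547510) reached 15.2-fold in starved 1. No place on Zfyve1 was called in every library, and the highest value per library was 4.85, 18.3, 22.7 and 7.35 in the order control 1, control 2, starved 1, starved 2. The groups overlapped.

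Zfyve26 (chr12:79232346-79296304, minus strand, 42 exons, with a transcript of 9391 nt of which 7590 nt are coding) had 11 peaks in 6 places, the most peaks of any member together with Wdfy3. The last exon, 1824 nt long, carried the only place listed in all 4 libraries, chr12:79233136-79234169, which runs from the last coding bases over the stop codon (first base 79233968) into the 3′UTR. Its fold enrichment was 24.9 in control 1, 81.3 in control 2, 22.2 in starved 1 and 14.4 in starved 2. Both control values lay above both starved values, although control 1 and starved 1 were close and control 2 stood apart.

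On the log2 scale the mean of this region was 5.49 ± 1.21 in control and 4.16 ± 0.44 in starved MEFs, a difference of -1.33 and a ratio of starved to control of 0.398 (p = 0.333 by a two-sided exact permutation test, n = 2). That p is the smallest that 4 libraries in groups of 2 allow, so no single region could pass a threshold of 0.05. Without control 2 the difference was -0.48, and without control 1 it was -2.18, so its size rested largely on which control library was used. Over all regions with a peak in the 4 libraries, 8.197% had a difference as low or lower.

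Exon 11 of Zfyve26 (chr12:79280357-79280785, coding) had no peak in control 1 and peaks of 13.5-fold in control 2, 13.2-fold in starved 1 and 8.07-fold in starved 2. Both starved values lay below the 1 control value, that of starved 1 only just. Coding exons 34 and 21 had peaks in starved 1 alone, of 146-fold at chr12:79246035-79246244 and 78.4-fold at chr12:79268359-79268642. The peak on exon 34 ranked 280 in its list by fold enrichment and took the whole exon of 210 nt. These values were higher than any other of Zfyve1 or Zfyve26 in starved cells, and the other starved library listed neither place.

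The last pair of single-library places on Zfyve26 lay in opposite groups. Exon 37 (chr12:79239857-79240056) had a peak of 23.1-fold in starved 2, and exon 2 (chr12:79295477-79295695), which holds the start codon, had 36.1-fold in control 2. Zfyve26 thus had 1 and 3 peaks in control and 4 and 3 in starved MEFs, with its highest value at the stop codon region in both control libraries and on a coding exon in both starved libraries. The stop codon region was the place with the lower values in starved cells, and the coding peaks above it in starved cells were not shared between replicates.

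**Figure D2:**
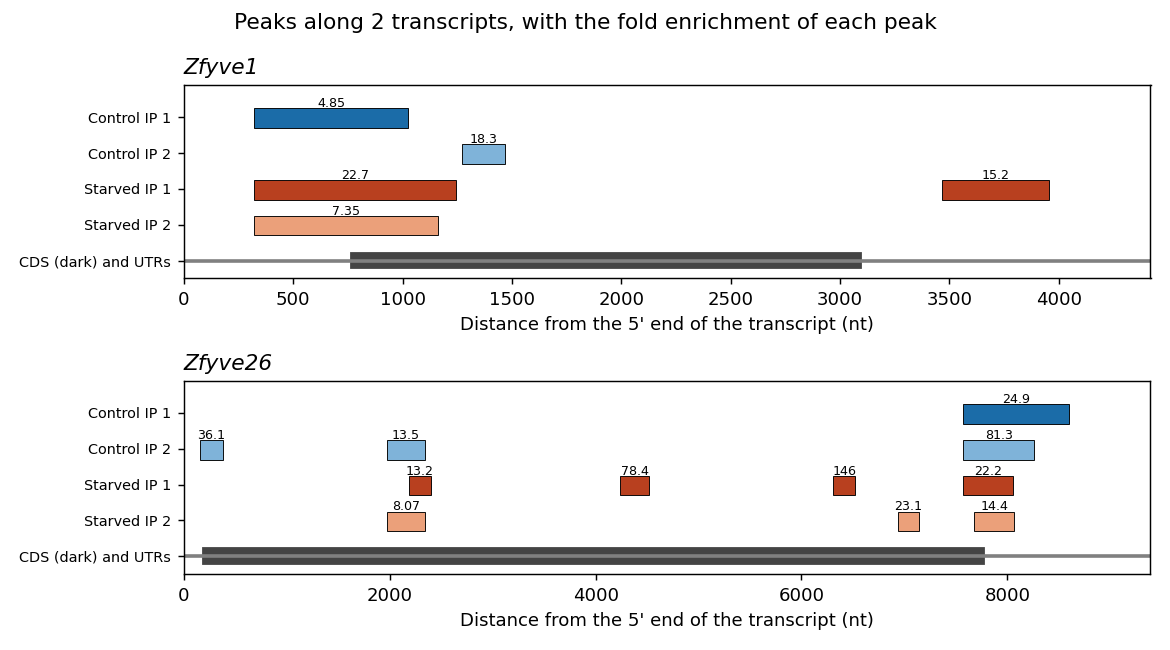
Peaks of Zfyve1 and Zfyve26 along their transcripts (x axis, nt from the 5′ end of the spliced transcript), with 1 row per IP library and the fold enrichment above each bar. The dark bar is the coding sequence. The only place with bars in all 4 rows is the end of the coding sequence of Zfyve26.

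Zfyve1 and Zfyve26 were then set against the other members within each library, where both sides share an input and a caller run. Together they had 2 and 4 peaks in control and 6 and 4 in starved MEFs (3 ± 1.41 and 5 ± 1.41, SD, n = 2), with overlapping groups. The other members had 11 and 12 peaks in control and 8 and 7 in starved MEFs (11.5 ± 0.707 and 7.5 ± 0.707), a difference of -4 without overlap. The fall was smaller under other choices of peaks, -3 at 4-fold enrichment or more, -2.5 in lists of equal length and -0.5 under a false discovery rate of 20%. The full lists also fell without overlap, from 10103 and 9871 peaks in control to 9757 and 8974 in starved MEFs. Group means of the peak numbers went in opposite directions for the study genes and the rest, but the groups of the study genes overlapped. The difference between these directions was not tested.

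The median fold enrichment of Zfyve1 and Zfyve26 was 14.9 and 27.2 in control and 22.4 and 11.2 in starved MEFs. The medians of the other members were 12.4 and 15.2 in the control and 15.2 and 19.1 in the starved replicates. On the log2 scale the study genes differed from the rest by -0.18, 0.76, 0.56 and -0.82 in the order control 1, control 2, starved 1, starved 2. The values had both signs within each group. That of control 1, where the study genes had 2 peaks, depends on the scale, since their median fold enrichment was the higher one there. The group means were 0.29 ± 0.66 and -0.13 ± 0.98 (SD, n = 2), and the mean over the 4 libraries was 0.08. No steady difference in enrichment between Zfyve1 with Zfyve26 and the rest of the family was therefore seen.

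Zfyve27 encodes protrudin, a protein of the endoplasmic reticulum that promotes the outgrowth of cell protrusions. It held the strongest peak of the family in every library, at the far end of its 3′UTR (chr19:42194242-42194592, plus strand), about 3972 nt after the stop codon in a last exon of 4208 nt. The fold enrichment was 321 and 239 in control and 176 and 264 in starved MEFs, and it ranked 64, 106, 206 and 118 in the lists. The means were 8.11 ± 0.30 and 7.75 ± 0.42 on the log2 scale, a difference of -0.36 (exact permutation p = 0.667, n = 2), and the groups overlapped. The score of this peak stood at the upper limit of 3100 in all 4 lists.

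A further Zfyve27 region was the only one of the family that both starved libraries listed and no control library did. It spans the stop codon (first base 42190445) at chr19:42190412-42190943, and its peaks reached 15.9-fold and 23.7-fold. Control 2 had a peak of 15.1-fold farther along the 3′UTR (chr19:42191029-42191364), which the starved libraries did not list. The fragments below are from the starved-only region and from the strong distal peak, with GGACT in capitals.
Zfyve27, chr19:42190837-42190866, plus strand: gagcctgcgaggGGACTtagagctccatgg
Zfyve27, chr19:42194308-42194337, plus strand: attaatgtttgtGGACTagtgagatgactc

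Zfyve9 and Zfyve16 encode a related pair of endosomal proteins, SARA, which anchors Smads at the TGF-beta receptor, and endofin. Each had its 4-library region within a long coding exon. For Zfyve9 it lay in exon 4 (2024 nt) at chr4:108717835-108719746, with 12.4 and 12.9 in the control and 22.5 and 5.82 in the starved replicates. The control replicates were nearly equal and the starved replicates lay on either side of them, so the difference of -0.14 (SDs 0.04 and 1.38, exact permutation p = 1) was within the spread. Control 2 and starved 1 each had 2 peaks there, of which the larger was used. That of control 2 (chr4:108719382-108719746) shared no base with the starved 2 peak (chr4:108718392-108719197). The region is a chain of overlapping peaks, so its 4 values are not all from the same place.

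For Zfyve16 the region lay in exon 3 (2216 nt) at chr13:92521992-92522564, with 38.1 and 16.1 in the control and 14.6 and 79.8 in the starved replicates. The difference of 0.46 (SDs 0.88 and 1.73, exact permutation p = 1) came with overlapping groups, and it was -0.76 without starved 2. In the 259 bases that all 4 peaks share, GGAC did not occur, and the wider 5-base m6A context (A, G or T, then A or G, then A, then C, then A, C or T) occurred 4 times. The same exon held a place that both control libraries listed and no starved library did (chr13:92521541-92521815, 7.51 and 4.17) and one listed in control 2 and starved 1 (chr13:92522678-92523245, 63.2 and 26.03).

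Zfyve19 encodes ANCHR, a regulator of the abscission checkpoint in cell division. It had 1 region, in its last exon (chr2:119216629-119217050), with 23.0-fold in control 1, 73.3-fold in control 2 and no peak in starved cells. With Zfyve16 this was 1 of the 2 control-only places of the family. Fragments of the 4 regions of Zfyve9, Zfyve16 and Zfyve19 just described follow, with GGAC, GGACT or, for the Zfyve16 region of all 4 libraries, the wider context in capitals.
Zfyve9, chr4:108718826-108718855, minus strand: ctttatctggaagGGACaattgcgaacagt
Zfyve16, region of all 4 libraries, chr13:92522188-92522217, minus strand: gtctgaaggccaGAACAatgatgcagtgac
Zfyve16, control-only region, chr13:92521716-92521745, minus strand: atcactatgaaaGGACTacatgatgaaaat
Zfyve19, chr2:119216784-119216813, plus strand: agggcatccagggGGACagaagaccctgct

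Wdfy3, with a transcript of 14274 nt in 67 exons, had 11 peaks in 8 places, 6 and 1 in control and 2 and 2 in starved MEFs. The region at its stop codon (chr5:101835515-101836281) had 2.18 and 4.94 in control, no peak in starved 1 and 19.1 in starved 2. Coding exon 64 (chr5:101844921-101845244) had 32.9 in control 1 and 11.7 in starved 1. The other 6 places were listed in 1 library each, at 3.7- to 26.7-fold, so that Wdfy3 had many peaks and few that recurred.

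Wdfy2 encodes an endosomal adaptor that binds Akt kinases. It had a single peak of 18.8-fold, in the 3′UTR in starved 2 (chr14:62956280-62956886). Wdfy1 and Zfyve21 had no peak in any list. Zfyve21, a focal adhesion protein, has a transcript of 1308 nt, the shortest of the family, and Wdfy1 one of 4551 nt, which is within the range of the members with peaks. Members with peaks had from 0.15 (Wdfy2) to 1.46 (Zfyve16) peaks per kb of transcript, summed over the 4 libraries, and Zfyve1 and Zfyve26 lay within that range at 1.13 and 1.17.

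**Figure D3:**
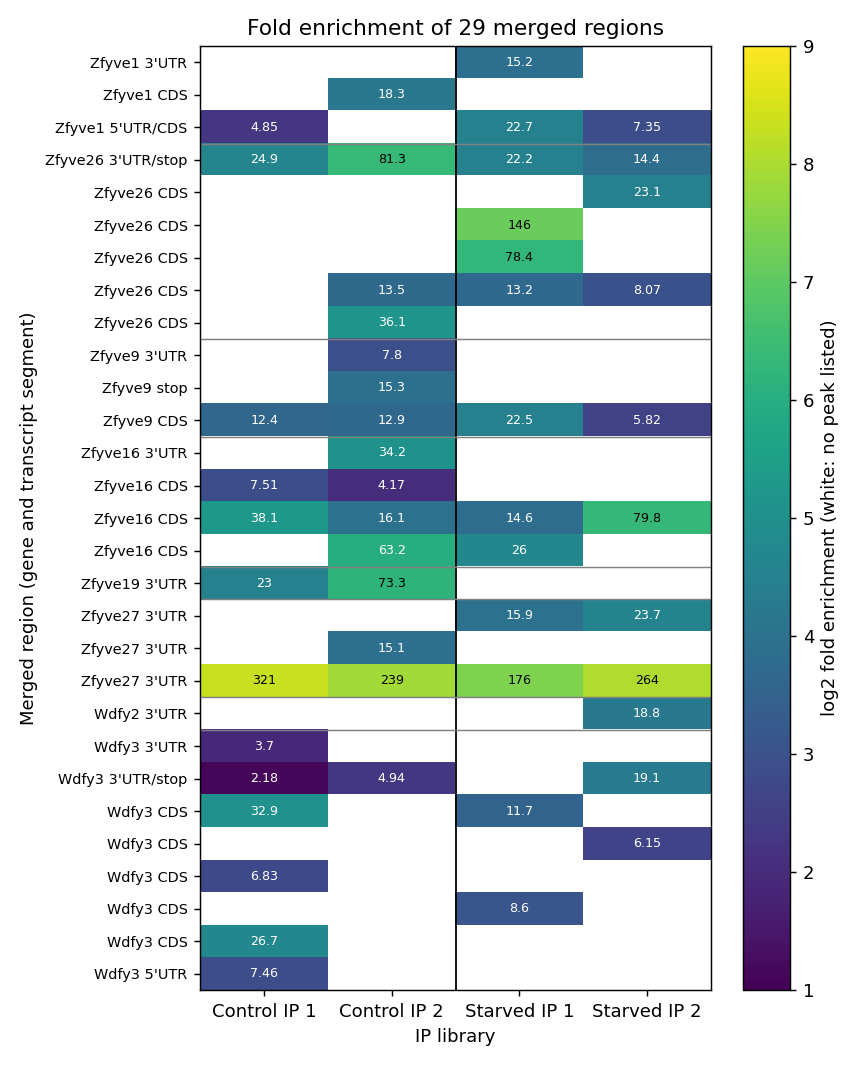
Fold enrichment of the 29 merged regions of the family (rows, by gene and transcript segment) in each IP library (columns), printed in each cell and coloured on a log2 scale. White cells have no peak listed. The 4 rows without a white cell belong to Zfyve26, Zfyve9, Zfyve16 and Zfyve27.

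Overlapping peaks of the 4 libraries were joined into merged regions, which asks how often a place on a family transcript was found again. Of the 29 regions, 17 were listed in 1 library, 5 in 2, 3 in 3 and 4 in all 4. The shares, 58.6%, 17.2%, 10.3% and 13.8%, were near those of the whole series, 56.2%, 20.96%, 12.2% and 10.7%. The control replicates shared 7 of the 21 regions listed in either (33.3%) and the starved replicates 7 of 17 (41.2%). A control and a starved library shared from 27.3% to 33.3%. Over the whole series the control replicates shared 30.3%, the starved replicates 29.6% and libraries of different groups from 28.4% to 30.4%, and the family's shares rest on few regions.

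Among the 4 family regions present in every library, 0 had both starved values above both control values, against 22.9% of the 2257 such regions in the series. The stop codon region of Zfyve26 was the 1 of 4 with both control values higher, against 18% of the series. Both starved libraries and neither control library listed 1 of 29 regions, that of Zfyve27, against 3.2% of all 21168. Both control libraries and neither starved library listed 2 of 29, those of Zfyve16 and Zfyve19, against 4.15%. Each of the 4 counts lies within 1 region of the count that the background share would give, so none of them sets the family apart.

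The median log2 difference over the 4 family regions was -0.25, and over all 2257 it was 0.10, with quartiles of -0.58 and 0.78. Zfyve26 lay below the lower quartile, and Zfyve9, Zfyve16 and Zfyve27 lay between the quartiles. When each library was centred on its own median over these regions, the difference of Zfyve26 became -1.54 and that of Zfyve27 -0.57. Both then had control values above starved values without overlap, 2 of 4 regions, against 23.4% of the series on that scale. With 1 library left out a region needed a peak in the remaining 3 only, and the counts rose. At most 2 regions were then higher (without starved 1) and 3 lower (without starved 2) in starved cells, and at most 5 were in starved libraries only (without starved 2) and 8 in control libraries only (without control 1). In a group with 1 library left, a peak in that library alone was enough for a group-only region. These counts were not taken over the whole series, so they have no background share and are not read as a result about the family.

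**Figure D4:**
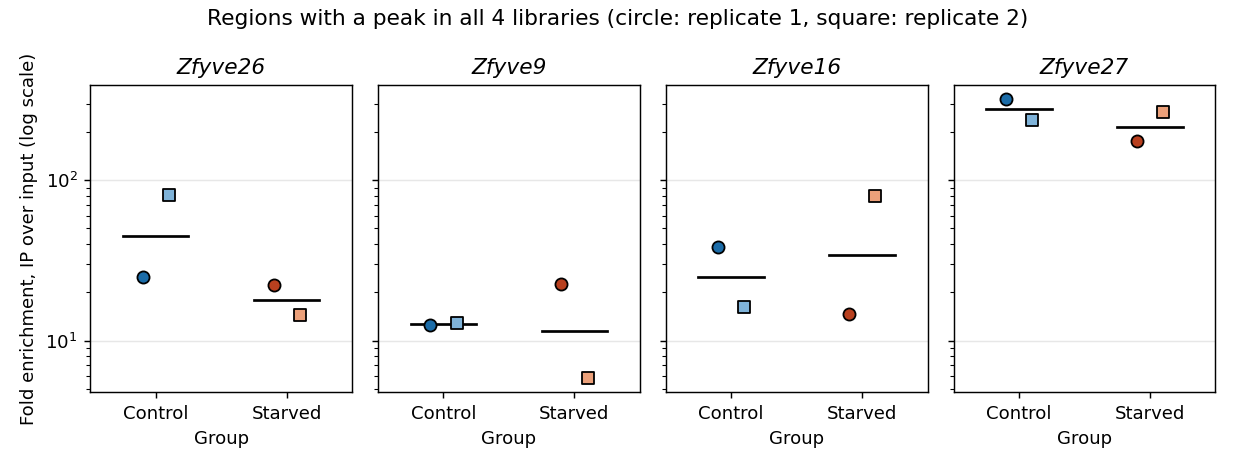
Fold enrichment (log scale) of the 4 family regions listed in every IP library, with circles for replicate 1, squares for replicate 2 and lines at the mean of the log2 values. Only in Zfyve26 do both control points, 24.9 and 81.3, lie above both starved points, 22.2 and 14.4.

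The position of the peaks on the transcripts was independent of how the family was chosen. By their centres, 3 of the 54 peaks lay in a 5′UTR, 29 in coding sequence, 3 within 100 nt of a stop codon and 19 farther along a 3′UTR. A peak that covers a stop codon is counted elsewhere when its centre lies farther off. In the stop codon region of Zfyve26, 1 peak counted as stop codon and 3 as 3′UTR, though all cover the stop codon. The shares below are therefore shares of centres, and peaks that cover a stop codon were not counted over all lists. The coding share was 53.7%, against 45.6% of the 36114 peaks that could be placed in all lists, and the stop codon share was 5.56% against 12.4%. In starved 1 the coding share of the family was 71.4%, and in the other libraries it lay between 45.5% and 50%. The coding peaks came mostly from Zfyve16 (8 of 9), Zfyve26 (7 of 11), Zfyve9 (6 of 8) and Wdfy3 (6 of 11), while all 7 peaks of Zfyve27 lay in its 3′UTR.

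The exons under the peaks were long, with a median of 1955 nt against 1479 nt for all peaks, and 44 of 54 peaks lay on an exon of at least 400 nt (81.5% against 79.5%). Fewer lay on the last exon, 40.7% against 59.9%. For Zfyve1 and Zfyve26, 11 of 16 peaks (68.8%) had an edge within 1 bp of an exon edge, and for the other members 12 of 38 (31.6%). This did not set the study genes apart, since Wdfy3 had 8 of 11 such peaks (72.7%), as did Zfyve26. The low share of the other members came from Zfyve9 (1 of 8), Zfyve16 (0 of 9) and Zfyve27 (0 of 7). Over all lists that share was 48.0%, which means that the limits of many peaks were those of annotated exons.

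**Figure D5:**
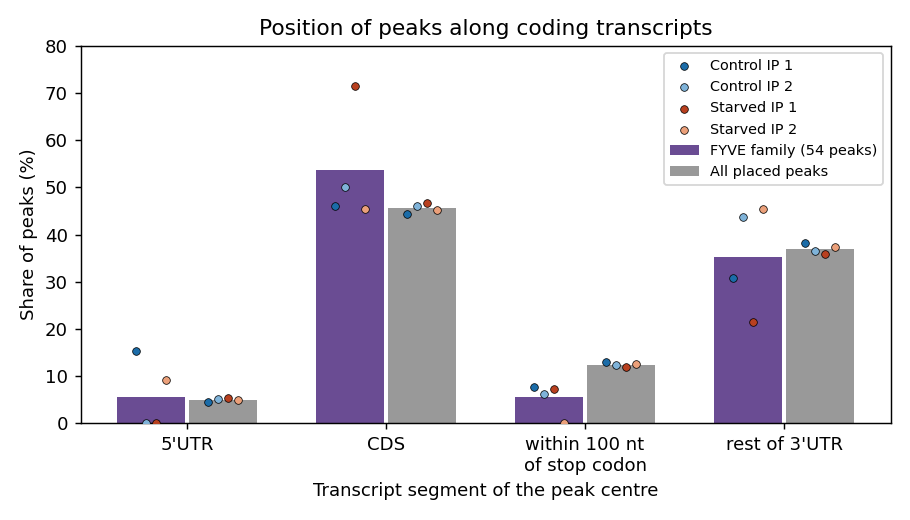
Share of peaks (y axis, %) by transcript segment of the peak centre, for the family (purple bars) and for all placed peaks (grey bars), with a point per IP library. The family bar is higher for coding sequence, 53.7% against 45.6%, and lower within 100 nt of the stop codon, 5.56% against 12.4%.

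GGAC on the transcribed strand was present in 48 of the 54 peaks (88.9%), against 80.7% of all peaks, and GGACT, which contains it and is 1 form of the wider context, in 34 (63.0% against 44%). All 16 peaks of Zfyve1 and Zfyve26 held GGAC and 12 held GGACT, and of the 38 peaks of the other members 32 and 22 did. Peaks differ in length, so the share was also taken in 200 bp at the peak centre, where GGAC was present in 61.1% of family peaks and 63.1% of all peaks. The higher share of GGAC in the family was thus not seen in windows of the same length. GGACT was present in 21 of 54 such windows (38.9%), against 26.2% of those of all peaks, and in 6 of the 16 windows of Zfyve1 and Zfyve26. By library the family's share was 30.8% and 62.5% in control and 35.7% and 18.2% in starved MEFs. Over all peaks it was 25.6% to 26.9%, so the excess was largest in control 2 and not seen in starved 2. A place listed in several libraries counts once in each. The wider context was in all 54 peaks and in 99.6% of all peaks, and it does not separate the family from other transcripts.

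The rest of the PI3P system was described with 3 lists of genes. Of 22 other genes listed as FYVE genes, 17 had a peak, in 52 regions, of which 9 were listed in all 4 libraries. The domain itself was not checked in their proteins. Of these 9 regions, 2 had both starved values higher and 3 both control values higher (22.9% and 18% in the series), and the median log2 difference was -0.38. Fgd1, a Cdc42 exchange factor, had the widest difference, with 4.79 and 5.70 in the control and 96.9 and 34.2 in the starved replicates (3.46 on the log2 scale). The phosphatase Mtmr4 had 7.24 and 6.72, then 16.6 and 11.1 (0.96). Rufy2 was lower in starved cells, with 49.9 and 44.4, then 14.1 and 14.8 (-1.70), as were Rufy3 (-1.30) and Fgd3 (-1.11). Fgd4 had a place in the starved libraries only (46.8 and 135), and Mtmr3 (18.1 and 4.42) and Fgd3 (4.12 and 21.2) had places in the control libraries only. These were 1 and 2 of the 52 regions, against 3.2% and 4.15% of the series, so they do not set this list apart.

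Of 23 genes that make, remove or read PI3P without a FYVE domain, 17 had a peak, in 37 regions. None of their 6 regions in all 4 libraries had groups that did not overlap, and the median log2 difference was -0.41. In the series, 22.9% of such regions had both starved values higher and 18% both control values higher. Of the 37, 3 were in the starved libraries only and 1 in the control libraries only, against 3.2% and 4.15% of the series. Pik3c3, the catalytic subunit of class III PI3-kinase, had a place listed in starved libraries only, at 33.98 and 255. Atg14 (7.29 and 4.92) and the PI3P reader Wipi2 (14.9 and 13.4) each had one as well. Pik3r4, the regulatory subunit of the same kinase, had one in the control libraries only, at 148 and 115.

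Of 28 partners of the members, 20 had a peak, in 42 regions, and of 7 regions in all 4 libraries 3 were higher and 1 was lower in both starved libraries (22.9% and 18% in the series), with a median log2 difference of 0.92. Spg11, which encodes spatacsin, the partner of the Zfyve26 protein, had 21.99 and 17.7 in control and 43.9 and 83.1 in starved MEFs (1.61). These values are from a coding region of Spg11, where the order was opposite to that of the stop codon region of Zfyve26. Groups overlapped at the other coding region of Spg11 that every library listed (0.92). Its control values were 10.5 and 15.1, while starved replicates 1 and 2 reached 13.3 and 42.8. Smad3, which SARA presents to the receptor, had 6.44 and 8.92, then 18.5 and 15.3 (1.15). Chmp4b was higher by 0.43 and Traf6 lower by -1.66. Each of these differences has an exact permutation p of 0.333 at best, as for the family.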

How the data were processed

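MeRIP-seq peak lists were used for the 4 IP libraries, grouped by the treatment and replicate in their GEO titles. According to the methods and the submitters' processing notes, Cutadapt was used for trimming and HISAT2 (version 2.0.4) for alignment to mm10. MACS2 then gave peaks for every IP library over its input, of which those on mRNA exons remained. The column names are those of earlier MACS versions, so the caller's version is uncertain. As deposited, fold enrichment is the ratio of IP to local input signal at a peak, and only the input of that library enters it. The deposited score is minus 10 times log10 of a p-value and stops at 3100. The authors give the false discovery rate as a percent. A table of the authors' own differential sites, which holds fold changes, p-values, adjusted p-values and directions, was not used. Input libraries have no list of their own among the files used, and 0 columns of per-sample values were unmapped. Depth is unknown, and no counting error or limit of detection could be given.

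Family peaks were assigned by deposited gene name. For the other gene lists, the 885 of 38705 peaks under an older name were brought to the current symbol. Starts were raised by 1 to count from 1. Peaks that overlapped by at least 1 bp were merged over the 4 libraries, and the largest fold enrichment represented a library. Regions listed in all 4 libraries were compared on the log2 scale by two-sided exact permutation of the 4 libraries (smallest p 0.333). Peak centres were placed on the longest GENCODE M21 coding transcript of the gene that holds the centre. On the longest transcript alone, 34906 peaks could be placed, with 46.5% in coding sequence and 12.0% within 100 nt of the stop codon. Exon lengths and last exons refer to that transcript alone. Motifs were counted on the transcribed strand of GRCm38. Analyses used Python 3.11.15, numpy 2.4.6, pandas 2.3.3, scipy 1.17.1, pysam 0.24.0 and matplotlib 3.10.9. The computed quantities were tested on simulated data of 3000 regions, and 14 of 14 were recovered.

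The text names all 10 members, every region of Zfyve1 and Zfyve26, regions of the other members listed in all 4 libraries or in both libraries of 1 group only, and genes of 3 further lists by the same patterns (at most 10 per list). The Zfyve16, Zfyve27, Wdfy2 and Wdfy3 regions outside that rule were named after their values were seen. The members and lists were chosen with earlier results of these data known. Alternatives were other limits on fold enrichment and false discovery rate, lists of equal length, 50% overlap, assignment by annotated exons, centring, the mean in place of the largest peak, a replicate block, and each library left out. A search of the proteins for the FYVE signature was not run, and protein sequences were not used here.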

Additional observations from a re-analysis of the deposited data

How the results depend on the processing

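Of 80 recomputed summary values, 55 stayed within 1 SD or within 1.5 times their count and 25 moved. Of 46 recomputed region differences, 42 kept their direction. Both tallies include a replicate block and assignment by annotated exons, which returned the main values. Several other settings left the peaks used for a region unchanged, so an unchanged value there is no evidence of stability. Keeping peaks of at least 4-fold enrichment gave a starved-minus-control difference of -0.017 in the family's median log2 fold enrichment and of -3 in the peaks of the other members. Lists of equal length (8974 peaks each) gave -0.046 and -2.5. A false discovery rate under 20% gave -0.56 and -0.5, moved the difference in family peaks from -2 to 0.5, and left 0 regions lower in starved cells, 0 in the starved libraries only and 0 in the control libraries only. At that limit Zfyve26 and Zfyve9 had no region in all 4 libraries, and Zfyve1 with Zfyve26 against the rest had no value. Centring left 2 regions lower in starved cells. With 1 library left out, 0 to 2 regions were higher in starved cells, 2 to 3 were lower, 2 to 5 were in starved libraries only and 2 to 8 in control libraries only. No share over the whole series was taken for these counts. The Zfyve26 stop codon region then differed by -2.18 to -0.48 and Zfyve27 by -0.65 to -0.07. The difference in family peaks ranged from -3.5 to -0.5 and that of the family median from 0.26 to 0.60. The mean of Zfyve1 with Zfyve26 minus the rest ranged from -0.15 to 0.38. The Zfyve9 difference turned to 0.0070 with 50% overlap and ranged from -1.12 to 0.83 with 1 library left out (0.83 without starved 2). That of Zfyve16 ranged from -0.76 to 1.69 (-0.16 without control 2 and -0.76 without starved 2). GGAC was in 61.1% of peaks in 200 bp at the centre. Except where the alternative itself keeps fewer peaks or libraries, the cause was not tested. The labels number replicates alike in both groups, but deviations of libraries with the same number correlated at -0.02 over 2257 regions, and nothing says that a number marks a shared culture. With a replicate block the differences kept their values, as they must when each number occurs in both groups. No call changed (Zfyve26 -1.33, exact sign-flip p = 0.5, the smallest possible, and p = 1 for Zfyve9, Zfyve16 and Zfyve27, and 0.43 for the family median). The peak counts of Zfyve1 with Zfyve26 and of the rest, and the extra settings for single regions, were added after seeing the data.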

Other observations

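The regions whose fold enrichment over the 4 libraries was most like that of the stop codon region of Zfyve26 were found by Euclidean distance of log2 values among all regions listed in every library. Bptf, a chromatin remodelling factor, was nearest at 0.78, with 35.9 and 74.0 in the control and 28.0 and 19.7 in the starved replicates. Nhsl1 followed at 0.80, with 29.5 and 69.0, then 35.4 and 17.3. Zfp397, a zinc finger gene, was at 0.84, with 39.2 and 62.9, then 19.97 and 11.5. Control 2 was the highest library for each of these regions, as for Zfyve26, but they were picked for values near those of Zfyve26. The shared order is therefore no separate observation. Zfyve1 had no region in all 4 libraries and was not compared.

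Peaks that took a whole annotated exon were 9 of the 54 in the family (16.7%) and 12.4% of peaks in all lists. Wdfy3, with 67 exons, held 5 of the 9. Peaks at the upper score limit of 3100 numbered 1 and 3 for the family in the control and 3 and 3 in the starved replicates, while 17.0% and 13.2%, then 28.5% and 27.8%, of all peaks reached that limit.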
